A study of Mus musculus with 12 samples.

Results

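The Cyp2 and Cyp3 genes, the largest cytochrome P450 families of the mouse liver, were followed across 4 diets. The members were all genes whose symbol begins with Cyp2 or Cyp3 and goes on directly with a letter, and 54 of them had a probe on the array, 46 of the Cyp2 family and 8 of the Cyp3 family, of 20886 named genes in all. They fall into 15 subfamilies, of which Cyp2c has 13 members, Cyp2d 10, Cyp3a 8, Cyp2j 6, Cyp2b 5 and Cyp2a 3, and each of the other subfamilies has 1. Where the array holds more than 1 probe for a gene (14 members), the brightest is given, and the others where they differ. Of the 57 protein-coding Cyp2 and Cyp3 genes in the RefSeq table used for naming, 52 had a probe, and the absent ones are Cyp2a5, Cyp2c40, Cyp2c69, Cyp2j12 and Cyp3a41a; the remaining members are not protein-coding in that table. The probe sequences were not used here, so that a probe of one gene may also read transcripts of near-identical neighbours, above all within Cyp2c, Cyp2d and Cyp3a.

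Cytochrome P450 enzymes are haem proteins of the endoplasmic reticulum that insert an oxygen atom into their substrate, with electrons passed to them by P450 reductase (Por). The Cyp2 and Cyp3 families oxidise most drugs and many plant compounds, and also steroids, fatty acids, bile acids and vitamin D. In the mouse liver many of them are induced through the nuclear receptors CAR (Nr1i3) and PXR (Nr1i2), several are made mainly near the central vein, and several differ between females and males under the control of growth hormone.

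The arrays read liver RNA of 12 female C57BL/6N mice, bought at 6 weeks of age, acclimated for 2 weeks and then kept on their diet for 6 months. All groups ate a normal formula diet. In the Ctrl group (3 mice) its carbohydrate was corn starch and sucrose, the RS group (3 mice) ate the same with resveratrol added, the DJ group (3 mice) had the starch and sucrose replaced by Dongjin rice, and the DJ526 group (3 mice) had them replaced by DJ526, a Dongjin rice that carries a transferred peanut stilbene synthase gene and makes resveratrol. DJ526 and DJ therefore differ in the rice line as well as in resveratrol, and RS and DJ526 differ in the carbohydrate source as well as in the form of resveratrol. The mice were caged by 10, and the cage of each mouse is not given in the sources used here.

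Levels are log2 of the processed signal minus log2 of the 75th percentile of the same array, so that 0 is the 75th percentile and 1 unit is a doubling. The level of one probe is not comparable with that of another. A summed level adds the signals of different probes, so that the brightest weigh most. The share of spots well above background ran from 73.0% to 80.8% over the arrays, with 0 saturated. Hepatocyte markers were present at high levels (11 of 12 listed genes read, all well above background on 12 arrays, with a summed level of 11.45 to 11.77 in all mice). The arrays came on 3 slides, and diet and slide were partly tied: slide 1 carried the 3 Ctrl mice with DJ replicate 1, slide 3 the 3 DJ526 mice with RS replicate 3, and slide 2 the remaining 2 mice each of DJ and RS.

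No member passed the threshold in any comparison. limma with Benjamini-Hochberg adjustment over all probes called 0 of 54 members in RS, DJ or DJ526 against Ctrl and in DJ526 against DJ or RS, where it called 0%, 0%, 0.00507%, 0.0101% and 0.00761% of all probes. In DJ526 against DJ and against RS the largest differences lay in Cyp3a, while the largest was that of the dim Cyp2c66 in DJ526 against Ctrl and of the dim Cyp2c65 in DJ against Ctrl. In DJ526, Cyp3a41b, Cyp3a16, Cyp3a11 and the brightest probe of Cyp3a59 had lower signals than in the other groups, by a log2 difference of up to -2.31, while Cyp3a25, Cyp3a57 and the brightest probe of Cyp3a13 were near the level of the other groups. Most other members differed little: 28 of the 54 ranged over less than 1 log2 unit across the 12 mice, and 9 over 2 units or more. In all, 47 members were well above background on all 12 arrays and 7 on some of them (Cyp2ab1 on 4, Cyp2b23 on 5, Cyp2b19 on 9, Cyp2c65 on 10, and Cyp2c66, Cyp2j9 and Cyp2j11 on 11). Of these, Cyp2j9 was not dim but lacked a value on DJ replicate 3. The median pooled SD within groups was 0.246 for the 47 members and 0.181 for the 15564 genes on all arrays.

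The Cyp3a genes lie on chromosome 5, most of them in 1 cluster of closely related copies, and Cyp3a11 is the main PXR-inducible drug-metabolising member in the adult mouse, the counterpart of human CYP3A4. Because several of them varied together, the 250 bases before the start of 5 members are shown, from the RefSeq annotation of GRCm38.p6 and written in the direction of transcription. Capitals mark AGGTCA or AGTTCA, the 6-base element that nuclear receptors such as PXR, CAR and HNF4A recognise and a variant of it, and ATTGAT, a core that HNF6 recognises, each searched on both strands. Cyp3a11 (chr5:145879855-145880104, minus strand), Cyp3a16 (chr5:145469724-145469973, minus strand) and Cyp3a41b (chr5:145584731-145584980, minus strand) are shown as members with a lower signal in DJ526, Cyp3a59 (chr5:146079008-146079257, plus strand) as the gene whose probes disagreed, and Cyp3a25 (chr5:146009619-146009868, minus strand) as a member that was even across the diets.
Cyp3a11: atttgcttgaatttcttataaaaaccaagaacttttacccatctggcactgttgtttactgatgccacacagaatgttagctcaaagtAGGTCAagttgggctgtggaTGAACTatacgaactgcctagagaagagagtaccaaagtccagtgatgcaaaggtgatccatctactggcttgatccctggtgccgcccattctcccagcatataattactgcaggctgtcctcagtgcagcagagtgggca
Cyp3a16: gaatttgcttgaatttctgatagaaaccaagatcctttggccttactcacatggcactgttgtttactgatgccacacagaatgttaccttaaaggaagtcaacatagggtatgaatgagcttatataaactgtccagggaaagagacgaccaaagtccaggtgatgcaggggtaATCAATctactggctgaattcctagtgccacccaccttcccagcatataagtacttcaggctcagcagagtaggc
Cyp3a41b: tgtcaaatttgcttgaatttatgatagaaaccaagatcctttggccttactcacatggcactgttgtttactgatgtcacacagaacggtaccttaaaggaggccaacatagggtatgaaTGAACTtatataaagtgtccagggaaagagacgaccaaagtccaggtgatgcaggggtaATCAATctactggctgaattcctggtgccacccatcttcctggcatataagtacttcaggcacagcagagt
Cyp3a59: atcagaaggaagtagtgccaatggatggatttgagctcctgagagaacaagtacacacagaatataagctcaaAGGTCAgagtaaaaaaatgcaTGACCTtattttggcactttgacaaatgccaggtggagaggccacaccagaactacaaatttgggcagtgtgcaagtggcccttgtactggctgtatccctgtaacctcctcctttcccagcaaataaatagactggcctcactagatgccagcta
Cyp3a25: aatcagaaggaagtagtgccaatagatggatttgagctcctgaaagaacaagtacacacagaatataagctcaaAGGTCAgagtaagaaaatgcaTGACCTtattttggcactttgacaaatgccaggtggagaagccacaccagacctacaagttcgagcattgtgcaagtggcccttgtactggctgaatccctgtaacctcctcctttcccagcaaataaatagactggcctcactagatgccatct

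The promoters of Cyp3a11, Cyp3a16, Cyp3a41b and Cyp3a44 were 73.2% to 94.8% identical to each other (6 pairs), and those of Cyp3a25, Cyp3a57 and Cyp3a59 were 89.0% to 94.8% identical (3 pairs). Between the first and the second set the identity was 56.8% to 59.4% (12 pairs), and the promoter of Cyp3a13, which lies apart from the cluster, was 54.0% to 60.3% identical to the others (7 pairs). In the second set AGGTCA occurred on both strands, for example 177 and 156 bases before the start of Cyp3a59 and 176 and 155 before that of Cyp3a25. In the first set it lay 162 bases before the start of Cyp3a11, where AGTTCA followed at 142, and 150 bases before that of Cyp3a44. AGTTCA also lay 130 bases before the start of Cyp3a41b. ATTGAT lay 75 bases before the start of Cyp3a16 and 71 before those of Cyp3a41b and Cyp3a44. In the second set ATTGAT lay 223 bases before the start of Cyp3a57. The 250 bases of Cyp3a13 held none of the 3 motifs. AGGTCA was found in 14% of all 32851 promoters of the table, AGTTCA in 11.8% and ATTGAT in 6.72%, beside 33.3%, 8.33% and 16.7% of the 48 promoters that 45 of the members have there. TTCNNNGAA, the element of the growth hormone-activated factor STAT5, was found in 7.02% of all promoters and 2.08% of these. The matches are descriptions of these windows.

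Cyp3a41b, a female-specific member of the cluster, had the widest range of the 54. Its level was 2.70, 4.42 and 3.09 in the Ctrl mice, 4.87, 4.58 and 3.72 in the RS mice, 3.40, 5.09 and 4.51 in the DJ mice, and 2.99, 1.89 and 1.35 in the DJ526 mice. All DJ526 mice lay below all RS and all DJ mice, and DJ526 replicate 1 lay above Ctrl replicate 1. The log2 difference was -2.31 ± 0.57 (SE) between DJ526 and RS, a 4.98-fold lower signal, -2.26 ± 0.57 between DJ526 and DJ, and -1.33 ± 0.57 between DJ526 and Ctrl (unadjusted p of 0.0018, 0.0021 and 0.0385 by limma; Benjamini-Hochberg adjusted p of 0.365, 0.246 and 0.437). The last difference was -0.82 without Ctrl replicate 2. RS and DJ stood above Ctrl by 0.99 ± 0.57 and 0.93 ± 0.57, within the spread between mice, and both differences reversed once slide was fitted as a block (-0.08 and -0.01). The probe may also read Cyp3a41a, which has no probe of its own here.

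Cyp3a16, a Cyp3a form of the fetal and female liver, went the same way. Its level was 4.14, 4.96 and 4.07 in Ctrl, 5.48, 5.13 and 4.22 in RS, 4.23, 5.55 and 5.0 in DJ, and 3.95, 3.21 and 2.98 in DJ526, so that each DJ526 mouse lay below each of the other 9. The log2 difference was -1.57 ± 0.41 (SE) between DJ526 and RS, -1.55 ± 0.41 between DJ526 and DJ and -1.01 ± 0.41 between DJ526 and Ctrl, or 2.96-fold, 2.92-fold and 2.02-fold lower signals (adjusted p of 0.433, 0.280 and 0.414 by limma). Over the 12 arrays Cyp3a16 and Cyp3a41b had a Pearson r of 0.98, and 0.96 with the group means removed.

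Cyp3a11 had levels of 6.84, 6.73 and 6.50 in Ctrl, 7.22, 6.49 and 6.19 in RS, 6.42, 7.06 and 6.81 in DJ, and 6.29, 5.78 and 5.59 in DJ526. The DJ526 mice lay below all Ctrl and DJ mice, and RS replicate 3 lay within the DJ526 range. The signal was 1.75-fold lower in DJ526 than in Ctrl (log2 difference -0.81 ± 0.26, SE), 1.84-fold lower than in DJ (-0.88 ± 0.26) and 1.68-fold lower than in RS (-0.75 ± 0.26), with adjusted p of 0.308, 0.349 and 0.695 by limma. Its second, dimmer probe read 4.09, 4.40 and 3.96 in Ctrl, 4.98, 4.39 and 3.80 in RS, 3.67, 4.87 and 4.49 in DJ, and 3.49, 2.88 and 2.65 in DJ526. On that probe all DJ526 mice lay below the other 9, with log2 differences of -1.15, -1.34 and -1.39 ± 0.34 against Ctrl, DJ and RS (adjusted p of 0.274, 0.257 and 0.383). RS and DJ were near Ctrl on the brightest probe (-0.06 and 0.07).

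**Figure D1:**
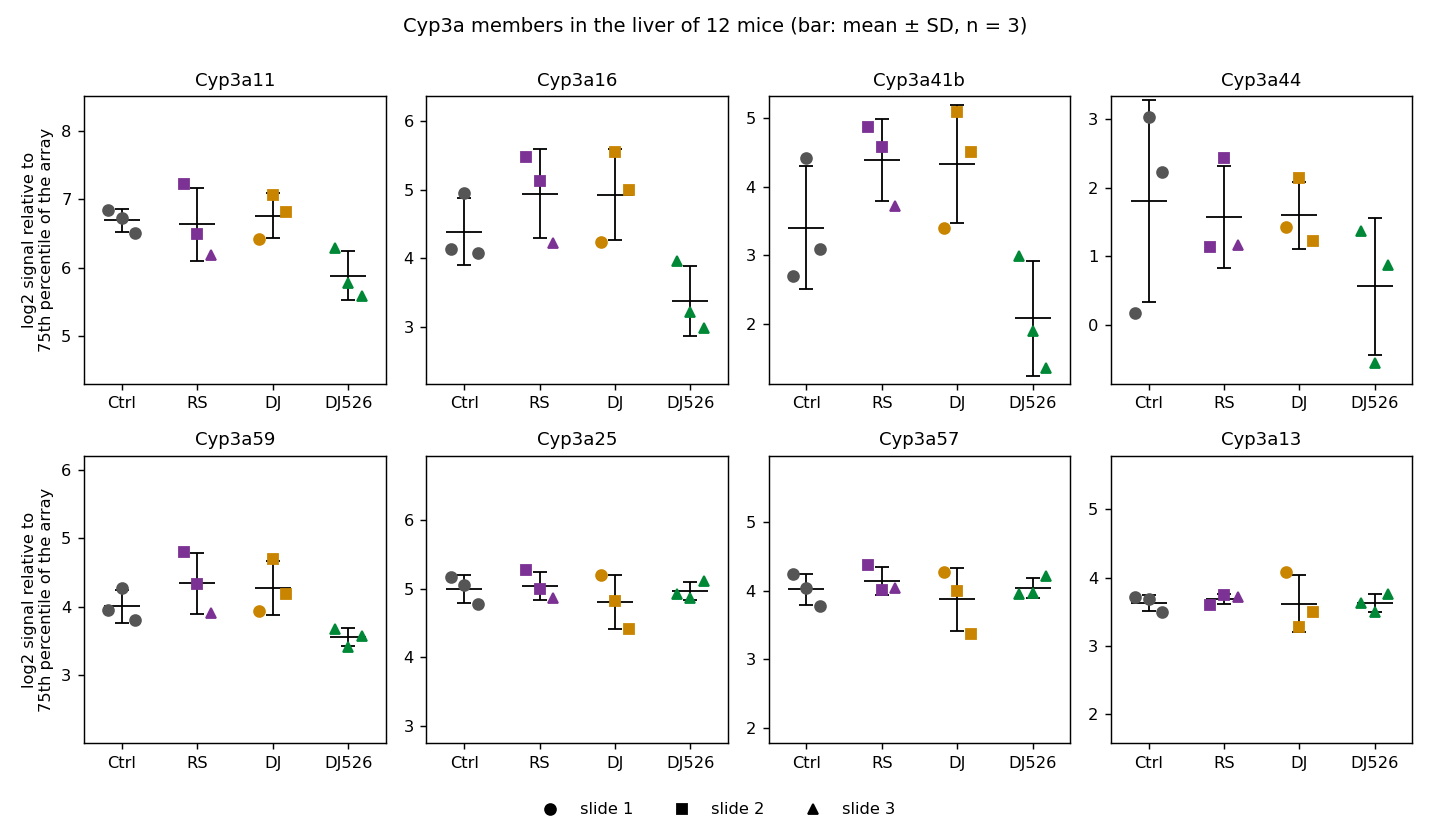
Levels of the 8 Cyp3a members in each of the 12 mice, as log2 signal relative to the 75th percentile of the array (vertical axis), by diet group (horizontal axis). Each point is 1 mouse, circles are slide 1, squares slide 2 and triangles slide 3, and the bars are the group mean ± SD (n = 3). The DJ526 points lie lowest for Cyp3a16 and Cyp3a59 and among the others for Cyp3a25, Cyp3a57 and Cyp3a13.

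Cyp3a44, another female-specific form, was the most scattered member: 0.17, 3.03 and 2.22 in Ctrl, 1.13, 2.43 and 1.16 in RS, 1.42, 2.14 and 1.21 in DJ, and 1.37, -0.57 and 0.87 in DJ526. The groups overlapped in every comparison. The DJ526 mean was lower by a log2 difference of -1.25 ± 0.70 (SE) against Ctrl, -1.04 against DJ and -1.01 against RS, and the first was -0.64 without Ctrl replicate 2 and -2.07 without Ctrl replicate 1.

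The probes of Cyp3a59 disagreed. The brightest read 3.95, 4.27 and 3.80 in Ctrl, 4.79, 4.33 and 3.90 in RS, 3.93, 4.70 and 4.19 in DJ, and 3.67, 3.41 and 3.57 in DJ526, where the DJ526 mice lay below the other 9 (log2 differences of -0.45, -0.72 and -0.79 ± 0.23 against Ctrl, DJ and RS). The second probe read 1.19, 1.08 and 0.61 in Ctrl, 2.12, 1.12 and 1.08 in RS, 1.49, 1.40 and 0.19 in DJ, and 1.15, 1.21 and 1.45 in DJ526, and its DJ526 mice lay inside the range of the others. Over the 12 arrays the brightest probe had an r of 0.96 with Cyp3a16, and the second probe had an r of 0.91 with Cyp3a57, 0.84 with Cyp3a25, 0.08 with Cyp3a16 and 0.29 with the brightest probe of its own gene. The promoter of Cyp3a59 printed above is of the set of Cyp3a25 and Cyp3a57, whose pattern the second probe has. The level of Cyp3a59 is therefore uncertain.

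On their brightest probes Cyp3a25, Cyp3a57 and Cyp3a13 did not differ beyond the spread between mice. Cyp3a25 read 5.17, 5.05 and 4.78 in Ctrl, 5.27, 5.0 and 4.87 in RS, 5.20, 4.82 and 4.41 in DJ, and 4.92, 4.87 and 5.12 in DJ526. Cyp3a57 had an r of 0.97 with it over the 12 arrays, and its log2 differences in the DJ526 comparisons were between -0.10 and 0.17 (± 0.21, SE). Cyp3a13, a form that is also abundant in the intestine, had means of 3.63 ± 0.11, 3.69 ± 0.08, 3.62 ± 0.42 and 3.63 ± 0.14 (SD, n = 3) in Ctrl, RS, DJ and DJ526. Its second, dimmer probe read 1.84, 1.61 and 1.54 in Ctrl, 1.95, 1.63 and 1.47 in RS, 1.70, 1.32 and 1.57 in DJ, and 1.53, 1.15 and 1.46 in DJ526. On that probe DJ526 lay below Ctrl without overlap (log2 difference -0.28 ± 0.15, SE) and overlapped with RS (-0.30 ± 0.15), with adjusted p of 0.528 and 0.950 by limma. It had an r of 0.58 with Cyp3a11 and 0.44 with the brightest probe of its own gene. Cyp3a25 and Cyp3a41b had an r of -0.17, so that the 8 members did not vary as 1 unit. These correlations are descriptions over 12 arrays that share their groups and slides.

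**Figure D2:**
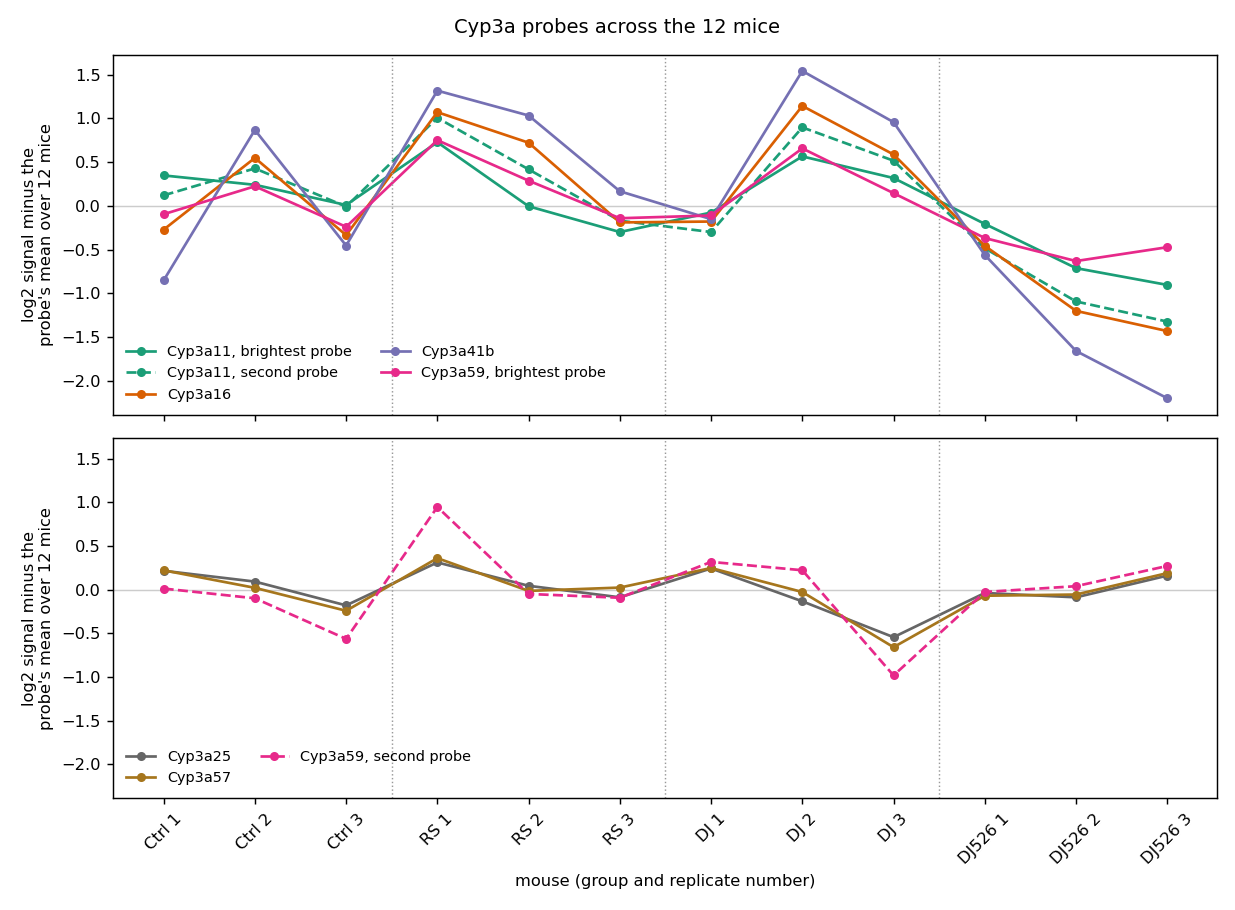
Level of each Cyp3a probe in each mouse minus the mean of that probe over the 12 mice, in log2 units (vertical axis), with the mice in order of group (horizontal axis). The upper panel joins Cyp3a11 (brightest probe solid, second probe dashed), Cyp3a16, Cyp3a41b and the brightest probe of Cyp3a59, and the lower panel Cyp3a25, Cyp3a57 and the second probe of Cyp3a59 (dashed). The lines of the upper panel are at their lowest in DJ526, and those of the lower panel run near 0 there.

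For all 8 Cyp3a members the DJ526 mean was below the RS mean (median log2 difference -0.77, beside -0.00 over all genes), for 7 of 8 it was below the Ctrl mean (median -0.63, beside 0.01) and for 5 of 8 below the DJ mean (median -0.80, beside 0.02). At an unadjusted p under 0.05 4, 3 and 4 members were lower (beside 3.01%, 4.33% and 4.72% of all genes), and none was higher. The summed Cyp3a level was 7.08 to 7.45 in the DJ526 mice, 7.55 to 7.96 in Ctrl, 7.50 to 8.34 in RS and 7.68 to 8.22 in DJ. The probe of Cyp3a11 is the brightest of the 8 and weighs most in this sum, which is no amount of the whole subfamily. The 3 comparisons share the DJ526 mice. The 3 DJ526 mice were all on slide 3, where the only other mouse was RS replicate 3. On that slide DJ526 minus RS replicate 3 was -1.64 for Cyp3a41b, -0.84 for Cyp3a16, -0.35 for the brightest probe of Cyp3a59 and -0.31 for Cyp3a11, each smaller than between the groups. The 4 mice of slide 2 had the highest Cyp3a41b values (4.51 to 5.09), and DJ minus RS was 0.07 there. With slide as a fixed block the count of Cyp3a members lower at an unadjusted p under 0.05 went from 4 to 1 against RS. Against Ctrl it went from 3 to 0 and against DJ from 4 to 0. That fit ties DJ526 to the other groups through RS replicate 3 alone. With slide as a random block the count was 4 against RS, 1 against Ctrl and 4 against DJ.

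The difference between DJ526 and DJ was also set against that between RS and Ctrl, as DJ526 minus DJ less RS minus Ctrl. For short it is named the difference between the effects of resveratrol, here and below. DJ526 and DJ also differ in the rice line, and DJ526 and RS in the form of resveratrol. These cannot be told apart from an effect of resveratrol. This difference of effects was -3.24 ± 0.80 (SE) log2 units for Cyp3a41b, -2.10 ± 0.58 for Cyp3a16, -1.06 ± 0.33 for Cyp3a59 and -0.82 ± 0.37 for Cyp3a11 on the brightest probes. By limma the adjusted p were 0.489, 0.571, 0.668 and 0.818. The second probes gave -0.24 ± 0.50 for Cyp3a59 and -1.58 ± 0.49 for Cyp3a11 (adjusted p of 0.976 and 0.663). Of the 54 members 0 passed, beside 0% of all probes, and 7 had an unadjusted p under 0.05, all negative (13.0%, beside 6.35% of genes in either direction, 3.63% negative and 2.72% positive). The other 3 were Cyp2e1, Cyp2g1 and Cyp2b19. With slide as a block 3 were counted, and 14 were counted without Ctrl replicate 1.

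Of the 3 Cyp2a members, Cyp2a4 had its lowest mean in DJ. Cyp2a4, a steroid hydroxylase that is more abundant in females, read 7.80, 7.82 and 8.13 in Ctrl, 7.95, 8.28 and 8.01 in RS, 7.49, 7.38 and 7.64 in DJ, and 7.61, 8.06 and 8.01 in DJ526. The DJ mice lay below all Ctrl and RS mice and overlapped with DJ526. DJ minus Ctrl was -0.41 ± 0.14 (SE), and DJ526 minus DJ was 0.39 ± 0.14 (adjusted p of 0.850 and 0.440 by limma). The second probe gave -0.55 ± 0.19 and 0.52 ± 0.19. DJ replicate 1 was 0.42 below the Ctrl mean on slide 1, and the DJ mice were 0.60 below the RS mice on slide 2. With the labels of DJ and RS exchanged, as 1 sample list of the study's supplement has their arrays, DJ minus Ctrl was 0.16. That value is RS minus Ctrl under the labels used here. These probes may also read Cyp2a5, the near-identical coumarin hydroxylase, which has no probe of its own here. Cyp2a12, a steroid and bile acid hydroxylase, and Cyp2a22 had an r of 0.95 over the 12 arrays, with Cyp2a22 ranging from -2.13 to 0.79 and its groups overlapping throughout (RS minus Ctrl 0.77 ± 0.61).

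The Cyp2b genes are among those that CAR induces most strongly, and the groups overlapped in all comparisons for 4 of the 5, Cyp2b19 being the exception. Cyp2b10, the standard readout of CAR activity, had means of 5.75 ± 0.22, 5.77 ± 0.15, 5.91 ± 0.19 and 5.85 ± 0.09 (SD, n = 3) in Ctrl, RS, DJ and DJ526. Its largest log2 difference among the 5 comparisons was 0.16 ± 0.13 (SE). Cyp2b9, a female-predominant form with an r of 0.91 with Cyp2b10, had log2 differences between -0.10 and 0.16. Cyp2b13, also female-predominant, varied most within Ctrl (6.11, 5.06 and 4.90) and had its highest mean in RS (0.41 ± 0.29 above Ctrl). Cyp2b19, an arachidonic acid epoxygenase of the skin, and Cyp2b23 were dim, with no group mean above -5.78. For Cyp2b19 RS and DJ were 0.94 and 0.96 ± 0.48 above Ctrl, RS without overlap, and the difference between the effects of resveratrol was -1.81 ± 0.67 (adjusted p of 0.727 by limma). Its probe was well above background in 9 of the 12 mice, 2 of them Ctrl mice.

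Cyp2c, the largest subfamily, held 10 of 13 members with a higher mean in DJ526 than in Ctrl (median log2 difference 0.26, beside 0.01 over all genes), and on the brightest probes Cyp2c39 alone was higher at an unadjusted p under 0.05 (1 of 13, beside 6.14% of genes). Cyp2c39, a retinoic acid hydroxylase, read 4.51, 4.14 and 4.27 in Ctrl, 4.54, 4.64 and 4.75 in RS, 4.62, 4.62 and 4.38 in DJ, and 4.66, 4.37 and 4.68 in DJ526. RS did not overlap with Ctrl and was higher by 0.34 ± 0.12 (SE; adjusted p of 0.696 by limma). Cyp2c37, Cyp2c50 and Cyp2c54, fatty acid epoxygenases and hydroxylases of 1 gene cluster, varied together, with an r of 0.99 between the first 2, and varied most within Ctrl, where Cyp2c50 read 6.70, 5.65 and 6.00, beside 6.18 to 6.57 in the other 9 mice. Cyp2c29, a CAR-inducible form, had log2 differences between -0.04 and 0.11. Cyp2c70, which makes the muricholic acids of mouse bile, was 0.33, 0.35 and 0.41 ± 0.21 above Ctrl in RS, DJ and DJ526, with overlapping groups. Cyp2c67 and Cyp2c68 had an r of 0.98 and log2 differences between -0.20 and 0.21. Cyp2c23 (older name Cyp2c44), an arachidonic acid epoxygenase, and Cyp2c38 were 0.31 ± 0.21 and 0.26 ± 0.14 above Ctrl in DJ526. The second probe of Cyp2c38 read -0.72, -0.66 and -0.74 in Ctrl, -0.75, -0.02 and -0.31 in RS, -0.51, -0.53 and -0.65 in DJ, and -0.26, -0.32 and -0.06 in DJ526. On it DJ526 lay above Ctrl and DJ without overlap, by 0.49 ± 0.15 and 0.35 ± 0.15 (adjusted p of 0.281 and 0.491 by limma).

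The dim members of Cyp2c had the larger differences. Cyp2c66, better known from the gut, read -4.53, -3.79 and -5.21 in Ctrl, -5.00, -5.01 and -4.07 in RS, -4.84, -4.70 and -5.05 in DJ, and -6.22, -5.70 and -6.74 in DJ526, so that the DJ526 mice lay below all others. The log2 differences were -1.71, -1.53 and -1.36 ± 0.39 (SE) against Ctrl, RS and DJ, with adjusted p of 0.164, 0.407 and 0.335 by limma, the first being the smallest adjusted p of a member in the 5 comparisons. The probe was well above background on 11 of the 12 arrays. After the normexp background correction the differences were -0.59, -0.39 and -0.44. In its area of the array, probes of like detection differed between DJ526 and the other arrays by a median of -0.12, beside 0.05 over all such probes, and the part of array position was not tested. Cyp2c65, a CAR- and PXR-inducible form of the gut, had a log2 difference of -1.58 ± 0.58 between DJ and Ctrl, where Ctrl spread from -6.83 to -4.43 and 1 of 3 DJ arrays was well above background. After the normexp background correction it was -0.27. Cyp2c55, an inducible form, was 0.63 ± 0.33 higher in DJ526 than in DJ, with overlapping groups.

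**Figure D3:**
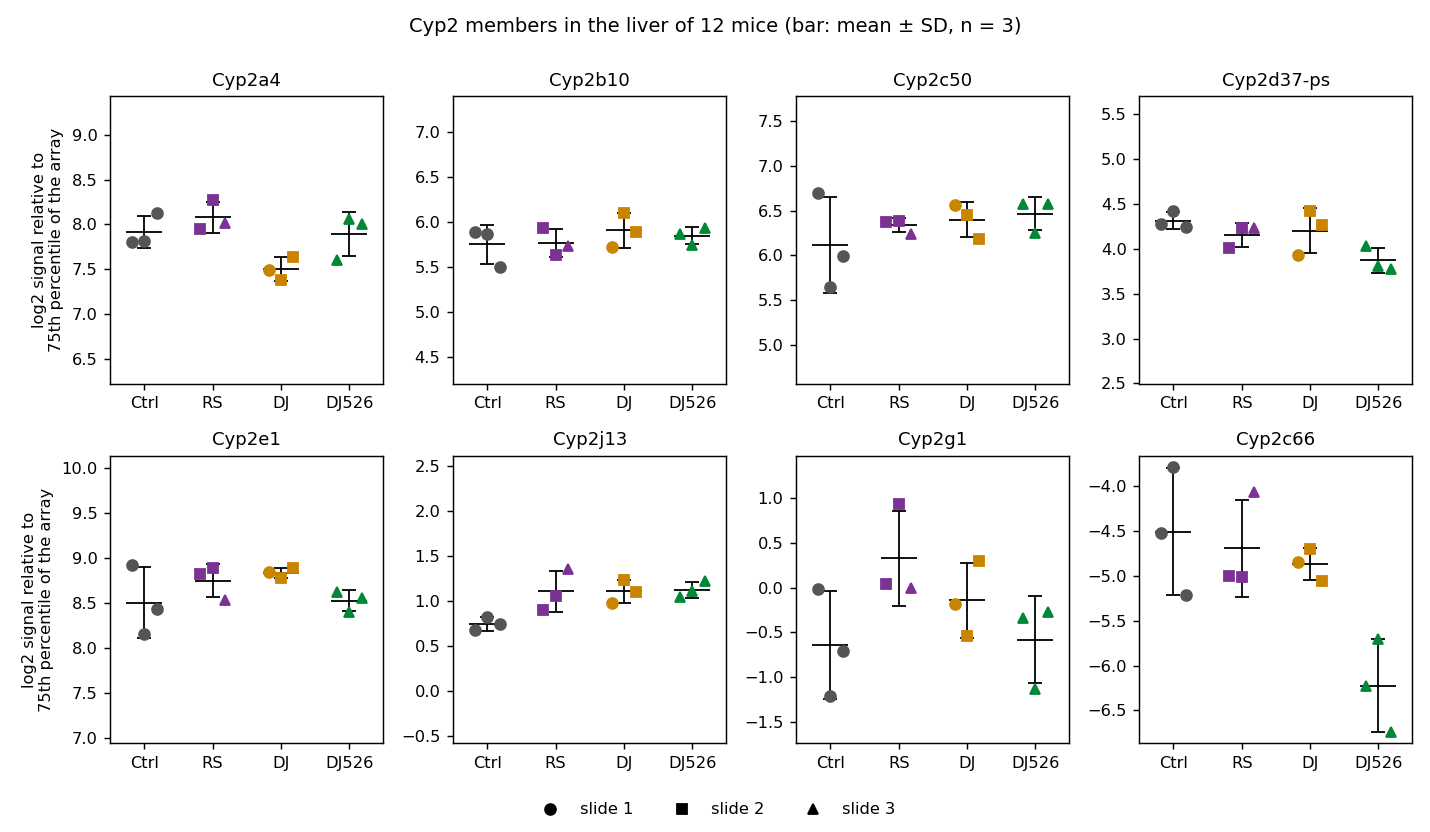
Levels of 8 Cyp2 members in each of the 12 mice, as log2 signal relative to the 75th percentile of the array (vertical axis, own range in each panel), by diet group (horizontal axis). Each point is 1 mouse, circles are slide 1, squares slide 2 and triangles slide 3, and the bars are the group mean ± SD (n = 3). Cyp2b10 is even, Cyp2a4 is lowest in DJ, and Cyp2c66 is lowest in DJ526.

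Cyp2d was the steadiest of the large subfamilies, with a median pooled SD of 0.115 within groups. All 10 means were lower in DJ526 than in DJ (median log2 difference -0.11, beside 0.02 over all genes), and 2 of the 10 were lower at an unadjusted p under 0.05 (beside 4.72% of genes). Cyp2d37-ps, annotated as a pseudogene, read 4.28, 4.42 and 4.24 in Ctrl, 4.00, 4.23 and 4.23 in RS, 3.93, 4.42 and 4.26 in DJ, and 4.03, 3.81 and 3.78 in DJ526. DJ526 did not overlap with Ctrl (-0.44 ± 0.12, SE; adjusted p of 0.244 by limma) and had log2 differences of -0.33 and -0.28 against DJ and RS, with overlap. Cyp2d10 had means of 7.13 ± 0.16, 6.93 ± 0.05, 7.14 ± 0.05 and 6.93 ± 0.03 (SD, n = 3) in Ctrl, RS, DJ and DJ526, with log2 differences of -0.20 ± 0.08 (SE) between RS and Ctrl and -0.21 ± 0.08 between DJ526 and DJ (adjusted p of 0.769 and 0.459 by limma). Cyp2d40 had a log2 difference of -0.49 ± 0.21 between DJ526 and Ctrl, where Ctrl replicate 2 stood at 6.17. Cyp2d9, a male-predominant testosterone hydroxylase, had log2 differences between -0.10 and 0.08, and Cyp2d11, Cyp2d12, Cyp2d13, Cyp2d22, Cyp2d26 and Cyp2d34 between -0.19 and 0.17.

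Cyp2e1, the ethanol- and acetaminophen-oxidising enzyme of the pericentral hepatocyte, read 8.93, 8.15 and 8.44 in Ctrl, 8.82, 8.89 and 8.54 in RS, 8.84, 8.78 and 8.89 in DJ, and 8.62, 8.40 and 8.56 in DJ526. The DJ526 mice lay below the DJ mice (-0.31 ± 0.17, SE) and within the range of Ctrl. The difference between the effects of resveratrol was -0.56 ± 0.24 for it (adjusted p of 0.797 by limma) and -0.31 ± 0.31 on its second probe. Cyp2f2, which oxidises naphthalene and is periportal in the liver, had means between 5.93 and 6.12 in the 4 groups. Cyp2g1, known mainly from the olfactory mucosa, read -0.01, -1.20 and -0.71 in Ctrl, 0.04, 0.94 and -0.00 in RS, -0.18, -0.54 and 0.30 in DJ, and -0.34, -1.13 and -0.27 in DJ526. RS lay above Ctrl and DJ526 without overlap, narrowly so between the nearest mice of RS and Ctrl. The log2 difference was 0.97 ± 0.36 between RS and Ctrl and -0.90 ± 0.36 between DJ526 and RS (adjusted p of 0.741 and 0.818 by limma).

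In Cyp2j, arachidonic acid epoxygenases, all 6 means were higher than Ctrl in RS (median log2 difference 0.20) and in DJ526 (median 0.33), and 5 of 6 in DJ (median 0.27), beside 0.02, 0.01 and -0.01 over all genes. Ctrl and DJ526 shared no slide. Within slide 3, DJ526 minus RS replicate 3 was -0.19, -0.13, -0.15, -0.16 and -0.23 for Cyp2j5, Cyp2j6, Cyp2j8, Cyp2j11 and Cyp2j13. It was 0.37 for Cyp2j9. Within slide 1, DJ replicate 1 minus the Ctrl mean was 0.17, 0.01, 0.19, -0.04 and 0.24 for the same 5 members. It was 0.78 for Cyp2j9. Cyp2j13 read 0.67, 0.82 and 0.75 in Ctrl, 0.91, 1.06 and 1.36 in RS, 0.98, 1.24 and 1.11 in DJ, and 1.04, 1.11 and 1.22 in DJ526. The 3 Ctrl mice lay below the 9 others, with log2 differences of 0.36, 0.36 and 0.38 ± 0.11 (SE) for RS, DJ and DJ526 and adjusted p of 0.649, 0.815 and 0.274 by limma. All Ctrl mice were on slide 1, where DJ replicate 1 stood 0.24 above their mean. With slide as a block the difference between DJ526 and Ctrl reversed to -0.19, and the 2 dimmer probes of the gene gave 0.10 ± 0.37 and 0.85 ± 0.35. Cyp2j8 had an r of 0.94 with Cyp2j13 and stood 0.22, 0.24 and 0.22 ± 0.09 above Ctrl. Cyp2j5, the main Cyp2j form of mouse kidney and liver, read -0.33, 0.41 and 0.05 in Ctrl and 0.21, 0.97 and 0.68 in DJ (0.58 ± 0.20, adjusted p of 0.876 by limma). Cyp2j6, Cyp2j9 and the dim Cyp2j11 were 0.27, 0.44 and 0.27 above Ctrl in DJ526, within 2 standard errors, and Cyp2j9 lacked a value on DJ replicate 3, which was left out of its fit.

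Of the remaining members, Cyp2r1, a vitamin D hydroxylase of the liver, was 0.18, 0.27 and 0.35 ± 0.21 (SE) above Ctrl in RS, DJ and DJ526. Cyp2t4 was 0.46 ± 0.20 higher in DJ526 than in Ctrl (adjusted p of 0.443 by limma), and -0.03 with slide as a block. Cyp2s1, an Ahr-responsive form of epithelia outside the liver, read -0.06 in Ctrl replicate 2 and between -2.92 and -1.87 in the other 11 mice. DJ526 minus Ctrl was -1.09 ± 0.54 for it, and -0.30 without that mouse. Cyp2u1, a long-chain fatty acid hydroxylase, had log2 differences between -0.11 and 0.24, and Cyp2w1, a form of the fetal gut, between -0.00 and 0.37. Cyp2ab1 was near background, and no RS array had it well above background.

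**Figure D4:**
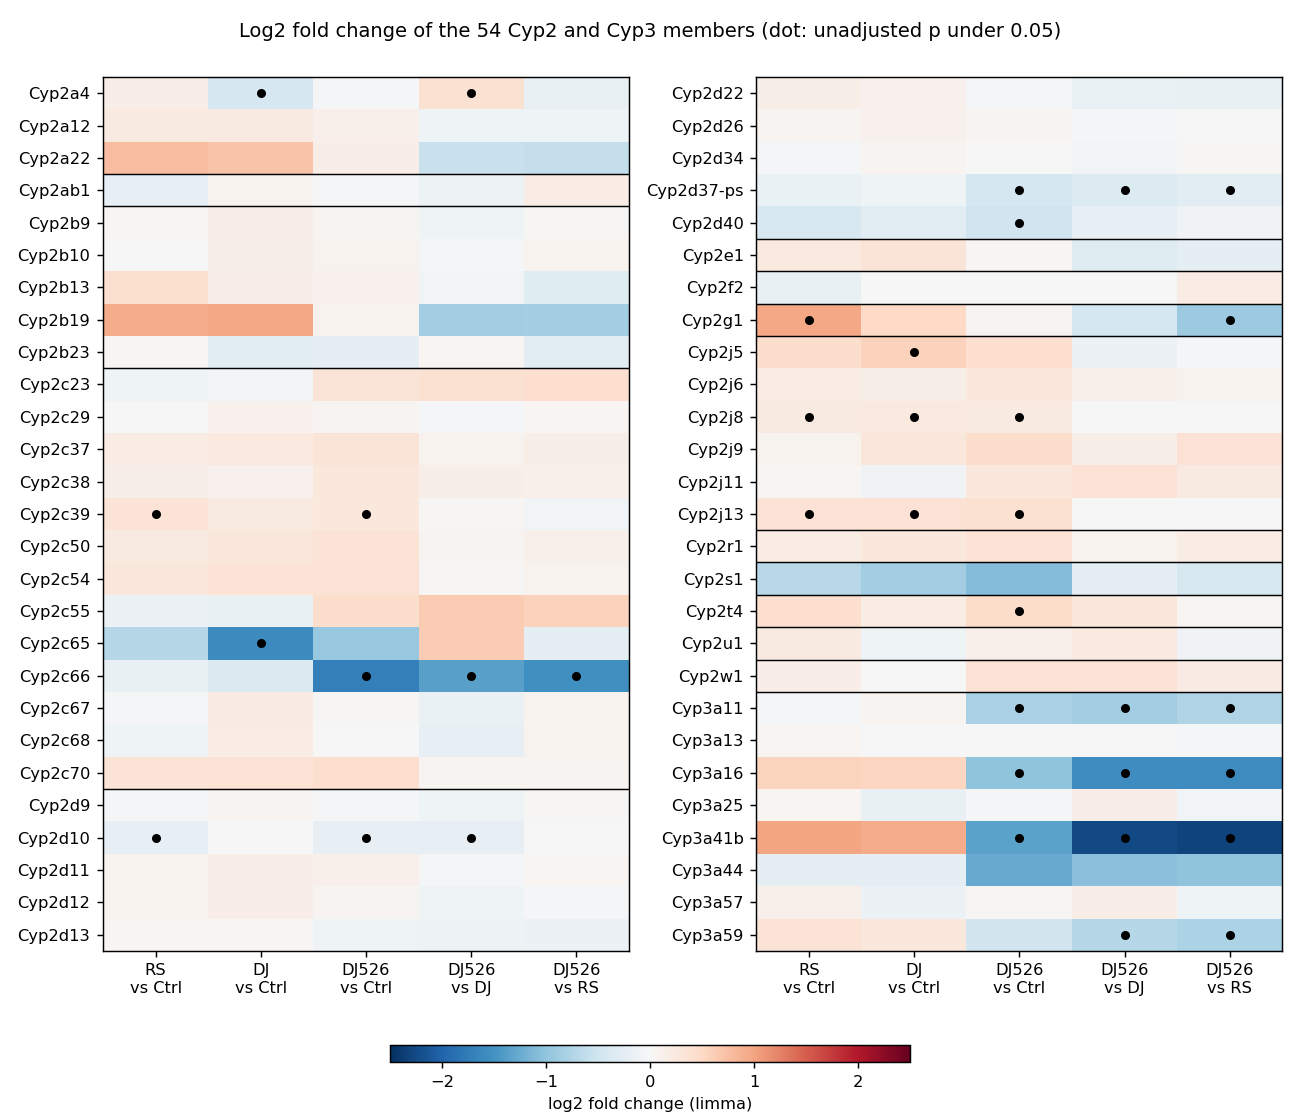
Log2 differences of the 54 members (rows, by subfamily, with lines between subfamilies) in the 5 comparisons of 2 groups (columns), as colours from lower (blue) to higher (red) in the first group named. A dot marks an unadjusted p under 0.05 by limma, and no member passed after adjustment. The deepest blue lies in Cyp3a41b for DJ526 against DJ and RS.

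The share of members with an unadjusted p under 0.05 was read against that of all genes. Against Ctrl it was 5 members in RS (9.26%, beside 6.2% of genes), with 4 higher (beside 4.08%) and 1 lower (beside 2.12%). It was also 5 in DJ (9.26%, beside 5.8%), with 3 higher (beside 3.03%) and 2 lower (beside 2.78%). Between DJ526 and Ctrl it was 11 members (20.4%, beside 10.5%), with 7 lower (13.0%, beside 4.33%) and 4 higher (7.41%, beside 6.14%). Lower members exceeded their background share in the other DJ526 comparisons too, with 7 against DJ (beside 4.72%) and 7 against RS (beside 3.01%), while 1 and 0 were higher (beside 5.2% and 2.16%). In either direction these were 8 members against DJ (beside 9.92%) and 7 against RS (beside 5.18%). The lower members were, against DJ and RS alike, Cyp3a11, Cyp3a16, Cyp3a41b, Cyp3a59, Cyp2c66 and Cyp2d37-ps, joined by Cyp2d10 against DJ and by Cyp2g1 against RS. These members are not independent of each other, since near-identical copies may share signal. Groups did not overlap for 6 members of RS against Ctrl (beside 10.5% of genes), 4 of DJ against Ctrl (9.83%), 12 of DJ526 against Ctrl (20.3%), 11 of DJ526 against DJ (17.7%) and 5 of DJ526 against RS (11.1%).

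The counts depended on single mice and on the slide. These counts, and those given elsewhere for alternative settings, are of members alone. The share of all genes under the same settings was not set beside them, so that a shift over all genes is not separated out. Without Ctrl replicate 1, 12 members passed the unadjusted threshold in RS and 15 in DJ against Ctrl. Without Ctrl replicate 3 it was 3 and 3, and without DJ replicates 1 and 2 the count for DJ was 9 and 2. Between DJ526 and Ctrl it was 5 without DJ526 replicate 3, 7 with slide as a block and 6 without the variance trend of limma, and between DJ526 and DJ 13 without DJ replicate 1 and 4 with slide as a block. The methods' t-test on the same values gave 0, 4, 6, 10 and 4 members in the 5 comparisons at that threshold and 0 after Benjamini-Hochberg adjustment.

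**Figure D5:**
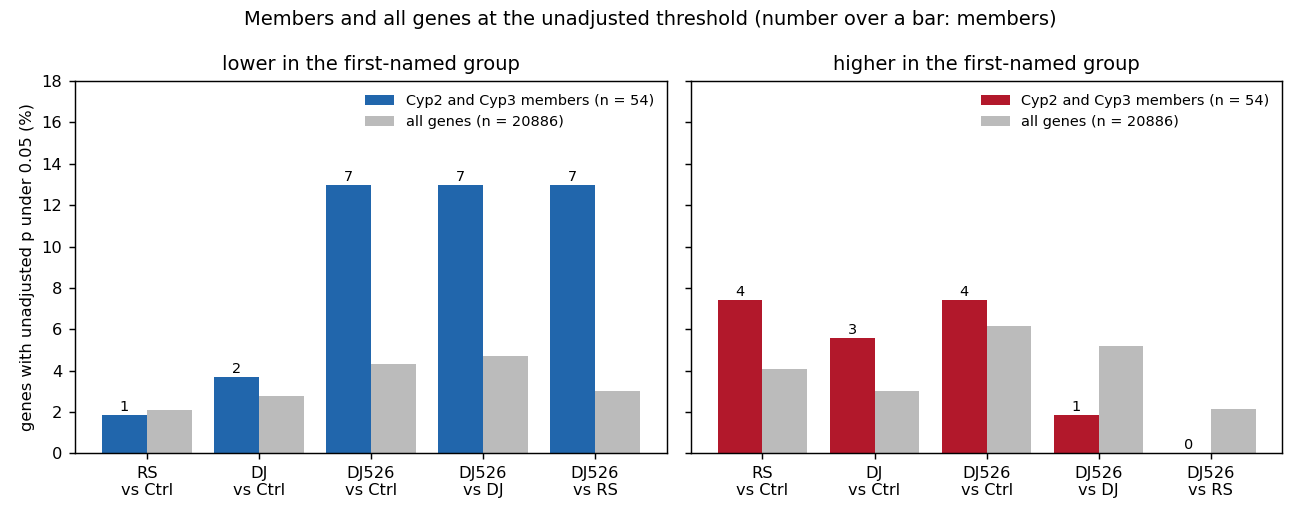
Share of the 54 members and of all 20886 genes with an unadjusted p under 0.05 (vertical axis, percent), separately for lower and higher genes (panels), in the 5 comparisons of 2 groups (horizontal axis). The numbers over the bars count the members. Lower members make up 13.0% in each of the 3 DJ526 comparisons, beside 3.01% to 4.72% of all genes.

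Rice against starch and sucrose, taken over both resveratrol states, had 5 members at an unadjusted p under 0.05 (beside 4.74% of genes): Cyp2a4, Cyp2c65, Cyp2c66 and Cyp2d37-ps lower (beside 2.56%) and Cyp2j13 higher (beside 2.18%). All 8 Cyp3a means were lower on rice (median log2 difference -0.30), with no unadjusted p under 0.05 on the brightest probes, and 5 of 8 were lower with slide as a fixed block or with DJ and RS exchanged. In DJ alone 4 of 8 were lower than in Ctrl (median 0.03). No member passed after adjustment, beside 0% of all probes. For any difference among the 4 groups, 9 members had an unadjusted p under 0.05 (beside 7.83% of genes) and 0 were called (beside 0.00507% of probes).

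Of the 5 listed electron donors of these enzymes, 0 had an unadjusted p under 0.05 in any of the 5 comparisons. The shares of all genes there ran from 5.18% to 10.5%, so that with 5 genes a count of 0 says little. Por read 6.70, 5.85 and 6.57 in Ctrl and 6.36, 6.33 and 6.33 in DJ526 (-0.03 ± 0.19, SE). Of 12 genes of haem synthesis and breakdown, 1 was lower in DJ than in Ctrl at that p (beside 2.78% of all genes). It was the haem oxygenase Hmox1 (-0.38 ± 0.16). In DJ526, 1 was lower than in DJ and RS (beside 4.72% and 3.01%), namely the synthesis enzyme Alad (-0.26 and -0.25 ± 0.11). Alas1, the rate-limiting enzyme of haem synthesis and itself a CAR and PXR target, had a log2 difference of -0.60 ± 0.29 between DJ526 and Ctrl (adjusted p of 0.492 by limma), with overlapping groups.

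At an unadjusted p under 0.05, 3 of 25 nuclear receptors and transcription factors of P450 genes were higher in RS than in Ctrl. The share of all genes higher there was 4.08%. The 3 were PXR (Nr1i2, 0.38 ± 0.14, SE), CAR (Nr1i3, 0.49 ± 0.21) and Ahr (0.34). Nr1i2 read 1.72, 1.96 and 2.04 in Ctrl, 2.33, 2.35 and 2.18 in RS, 1.82, 2.28 and 2.40 in DJ, and 2.14, 1.97 and 1.91 in DJ526, so that RS lay above Ctrl and DJ526 without overlap. In DJ, 1 was higher and 2 were lower than in Ctrl (beside 3.03% and 2.78% of all genes). In DJ526, 1, 0 and 3 of the 25 were higher than in Ctrl, DJ and RS (beside 6.14%, 5.2% and 2.16%). None of the 25 was lower (beside 4.33%, 4.72% and 3.01%). Their adjusted p did not pass, and neither did that of Nr5a2 or Foxa2, the members of this list with the smallest p across the 4 groups (0.595 and 0.665 by limma).

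The other targets of CAR and PXR differed in both directions. Of 23 such genes read, 4 were higher in RS than in Ctrl at an unadjusted p under 0.05 (beside 4.08% of all genes). The median of the list was 0.22 there. In DJ, 3 were lower than in Ctrl (beside 2.78%). In DJ526, 1 was higher than in Ctrl (beside 6.14%, median of the list 0.19) and 2 were higher than in DJ (beside 5.2%). Against RS, 3 were lower in DJ526 (beside 3.01%). In the difference between the effects of resveratrol 3 were negative and 1 was positive at that p (beside 3.63% and 2.72%). Abcb1a, a drug efflux transporter, had log2 differences of -0.57 ± 0.13 (SE) between DJ and Ctrl and 0.51 ± 0.13 between DJ526 and DJ (adjusted p of 0.644 and 0.251 by limma). Among the CAR- and PXR-inducible Cyp2 and Cyp3 genes, Cyp3a11 was the only 1 of 11 lower at an unadjusted p under 0.05 in the 3 DJ526 comparisons. The shares of all genes lower there were 4.33%, 4.72% and 3.01% against Ctrl, DJ and RS. The medians of that list were 0.07, 0.01 and 0.02 in the same order.

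Of the female-predominant Cyp2 and Cyp3 genes 6 of 9 were read, and their median log2 difference was -0.52, -0.57 and -0.66 in DJ526 against Ctrl, DJ and RS. The 2 of them that were lower at an unadjusted p under 0.05 were Cyp3a16 and Cyp3a41b in each comparison. The shares of all genes lower there were 4.33%, 4.72% and 3.01%. Cyp2a4, Cyp2b9 and Cyp2b13 differed from Ctrl by -0.02, 0.06 and 0.10 in DJ526. Of 10 male-predominant liver genes read, 4, 2 and 1 were lower in DJ526 than in Ctrl, DJ and RS at that p. Their medians were -0.36, -0.18 and -0.21, and the shares of all genes are those just given. Of the 23 other P450 genes read, 3 were lower and 3 higher in DJ526 than in Ctrl at that p (beside 4.33% and 6.14%). Cyp8b1, the bile acid hydroxylase that makes cholic acid, read 0.25, 1.03 and 0.27 in Ctrl and -1.35, -0.60 and -3.91 in DJ526 (-2.47 ± 0.67, adjusted p of 0.234 by limma), and Cyp4f15 was 0.27 ± 0.08 higher in DJ526 than in Ctrl.

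Cell composition was checked by marker lists, since in whole liver fewer cells of a type and less RNA per cell cannot be told apart. The summed level of 11 pericentral markers, of the zone where many P450 enzymes are made, was 7.78 to 7.82 in Ctrl, 7.77 to 7.98 in RS, 7.82 to 8.05 in DJ and 7.77 to 7.90 in DJ526, and that of 10 periportal markers 9.15 to 9.71 in all mice. At an unadjusted p under 0.05, 1 pericentral marker was lower and 1 higher in DJ526 than in Ctrl, 2 were lower than in DJ and 1 was lower than in RS. Beside these and the marker counts below, the shares of all genes lower in DJ526 against Ctrl, DJ and RS were 4.33%, 4.72% and 3.01%. The shares higher were 6.14%, 5.2% and 2.16%. Of 11 hepatocyte markers, 2 were lower in DJ526 than in Ctrl, 3 were lower and 1 higher than in DJ, and 2 were lower than in RS. In DJ, 4 of the 11 were higher than in Ctrl at that p (beside 3.03% of all genes) and none was lower. The summed levels were 11.53 to 11.57 in Ctrl, 11.56 to 11.69 in RS, 11.64 to 11.77 in DJ and 11.45 to 11.56 in DJ526. In the difference between the effects of resveratrol 5 hepatocyte and 2 pericentral markers were negative at that p (beside 3.63% of all genes). The 8 lymphocyte markers had a summed level of 2.14 to 2.51 in Ctrl, 2.29 to 2.78 in RS, 2.37 to 3.52 in DJ and 2.53 to 3.35 in DJ526, with 2 of 8 higher in DJ526 than in Ctrl and 1 higher than in DJ at that p. Among Kupffer cell (7 read), stellate cell (8), cholangiocyte (6) and red cell (6) markers none differed in a DJ526 comparison at that p, and of 8 endothelial markers 1 was lower against Ctrl and 2 were higher against DJ. Of 9 pancreas and adipose markers, 2 were well above background on all 12 arrays, and 1 was higher in DJ526 than in RS at that p. The part of cell composition in the Cyp3a differences was not tested.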

How the data were processed

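Liver RNA of 12 mice was hybridised to 1-colour Agilent arrays. The authors deposited the signal intensity of each spot as Feature Extraction 11.5.1.1 gives it, after background subtraction, on a linear scale, and a table of globally normalized intensity values, used as an alternative. The log2 values were computed here from the deposited intensities, as log2 of the processed signal, averaged over the spots of a probe without control and outlier spots, minus log2 of the array's 75th percentile. Probes were named through RefSeq accessions (27508 of 39429; 11921 stayed unnamed, and 68 lacked a value on some array).

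A limma model (3.58.1, R 4.3.3) took all 12 arrays, a mean for each group and a variance trend (residual degrees of freedom 8), with Benjamini-Hochberg adjustment over all probes at 0.05, and was tested on simulated data. With 3 arrays a group, their number limits the precision. The mice are separate animals per the labels, but cages were not used. Named were the 4 members with the largest differences per comparison, the leading member of each subfamily, textbook members and, in each related list, the leading 2 genes. Members not so chosen were named after their values were seen, as were further genes of the lists. The members and lists were chosen with earlier results of these data known. Promoters came from RefSeq (GRCm38.p6), and figures were drawn with matplotlib 3.10.9 in Python 3.11.15. Alternatives were other backgrounds, scalings, filters and probe summaries, blocks for slide and replicate number, the methods' t-test, an exchange of DJ and RS, leaving out each mouse, and, added after seeing the data, subtraction of the local median of the array area (a grid of 8 by 4).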

Additional observations from a re-analysis of the deposited data

How the results depend on the processing

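No member passed the adjusted threshold under any of the 26 alternatives run, also when each mouse was left out in turn. It was 0 of 54 in every comparison, or 0 of 52 with the filter on dim probes and with the normexp background. The smallest adjusted p was 0.0744, for Cyp2c66 in DJ526 against Ctrl without RS replicate 3. The largest differences per comparison, 20 results under the 26 alternatives, gave 520 values, of which 518 kept their direction. Many of these could not change. Alternatives that alter only the test or the filter, and the replicate block, leave the group means as they are. Leaving out a mouse of a group not compared does so too. The 20 results were also chosen from these data as the largest, so the count is no measure of robustness. Cyp3a41b reversed in RS against Ctrl (-0.080) and in DJ against Ctrl (-0.0058) with slide as a fixed block. Of 9172 values of the other members and comparisons, 661 reversed, among them Cyp3a25 in DJ526 against Ctrl, which was 0.82 with slide as a fixed block. With DJ and RS exchanged, DJ against Ctrl takes the values of RS against Ctrl, so that its median over the members was 0.09. In DJ526 against Ctrl the median moved to -0.07 with slide as a fixed block. The cause of the reversals and of this shift was not tested.

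The replicate numbers did not pair the mice: same-numbered mice had correlations of -0.27 to 0.26 (18 pairs), others -0.34 to 0.35 (36 pairs). With the replicate block, 0 members were called and 8 passed the unadjusted threshold between RS and Ctrl, where 5 passed without it. With slide as a random block (correlation 0.21), 2, 5 and 3 members passed that threshold in RS, DJ and DJ526 against Ctrl. In DJ526 against DJ and RS it was 7 and 5. Cyp3a41b in DJ526 against DJ ranged from -2.73 to -1.72 over all alternatives, and against RS from -2.77 to -1.64. Cyp3a16 ranged from -1.90 to -0.81 and from -1.93 to -0.84, and Cyp3a59 from -0.89 to -0.23 and from -1.01 to -0.35. The number of arrays, 3 a group, and the dim signal of Cyp2ab1, Cyp2b19, Cyp2b23, Cyp2c65, Cyp2c66 and Cyp2j11 limit what could be called.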

Other observations

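Over the 12 arrays, members of the same subfamily had a median r of 0.33 (140 pairs) and members of different subfamilies 0.04 (941 pairs), as a description over arrays that share their groups and slides. After Cyp3a16, the genes whose level was most like that of Cyp3a41b were Helb (r of 0.96), Ankrd24 (0.93) and Ank2 (0.92). The group means were left in, so that a gene with a lower level in DJ526 ranks high. The major urinary protein genes Mup17 and Mup2, which are growth hormone-dependent liver genes, had an r of 0.87 and 0.85 with Cyp3a41b. They stood at ranks 11 and 15, below other genes not named here. These genes were picked after their values were seen.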
